A study of Mus musculus with 6 samples.

Results

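The myosin light chain kinase family was described in hind limb skeletal muscle of mice that lack or retain the laminin alpha 2 chain, which is part of the basement membrane around muscle fibres. Every probe set whose gene symbol was Mylk, Mylk2, Mylk3 or Mylk4 was taken, which gave 6 probe sets of 4 genes among 45101 probe sets and 18193 genes. Muscle of all hind limb groups came from wild type mice and from laminin alpha 2 chain deficient mice, 3 arrays each, all at 4 weeks of age. The titles call the samples biological replicates and do not say that each was a single mouse. Each array is called a mouse below. The labels name neither the strain, the sex nor the altered Lama2 allele, and describe no treatment. The family was chosen with the difference between the 2 groups in view, led by the low signal of Mylk4 in deficient muscle. Its own differences are therefore a description, with no test.

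Myosin light chain kinases are switched on when calcium binds calmodulin, and they phosphorylate the regulatory light chain of myosin. Phosphorylation starts contraction in smooth muscle, whereas in skeletal muscle it potentiates force after repeated stimulation. Mylk encodes the smooth muscle and non-muscle kinase, Mylk2 the skeletal muscle kinase and Mylk3 the cardiac kinase, while Mylk4 is a less studied member of the family. Light chain phosphatase, built from a catalytic and a targeting subunit, removes the phosphate.

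RefSeq promoter windows of GRCm38.p6 were at hand for 3 of the 4 genes, Mylk, Mylk3 and Mylk4. The 250 bases before the listed start are printed for Mylk4, the member with the largest difference, and for Mylk, whose groups overlapped, to set their motif content side by side. Capitals mark E-boxes (CANNTG, the letters bound by myogenic factors) and matches to the MEF2 motif, both searched on both strands. The Mylk4 window is chr13:32783965-32784214 on the minus strand and the Mylk window chr16:34784700-34784949 on the plus strand, and both lie inside the annotated span of their gene.
Mylk4: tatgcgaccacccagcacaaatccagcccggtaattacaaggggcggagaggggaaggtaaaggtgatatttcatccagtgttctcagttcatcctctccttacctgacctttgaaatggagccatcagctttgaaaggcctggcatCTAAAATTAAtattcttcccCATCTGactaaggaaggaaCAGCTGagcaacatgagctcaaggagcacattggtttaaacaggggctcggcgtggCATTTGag
Mylk: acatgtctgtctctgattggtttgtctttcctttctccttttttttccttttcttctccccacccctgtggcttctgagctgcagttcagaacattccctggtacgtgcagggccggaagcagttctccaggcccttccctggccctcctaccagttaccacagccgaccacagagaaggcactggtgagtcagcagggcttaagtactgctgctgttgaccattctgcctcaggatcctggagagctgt
The Mylk4 window held 3 E-boxes, which began 83, 64 and 8 bases before the start, and 1 MEF2 match that began 103 bases before it. None of these overlapped another. Of all 32851 windows of 250 bases, 66.2% held an E-box, 12.2% held 3 or more and 2.92% held a MEF2 match. The Mylk window held neither motif, and of the 2 Mylk3 windows 1 held a single E-box. The CArG box, found in 1.47% of all windows, was in none of these 4 windows. These matches describe letters and not bound sites.

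Signal is the deposited linear intensity of a probe set. Differences were taken between group means of log2(signal + 16), with a minus sign where deficient muscle was lower. The added 16 shrinks the differences of dim probe sets, and 3 arrays per group set the precision. Array medians ran from 20 to 26.1. Lama2, the gene of the missing chain, read 326.2 to 428.7 in wild type and 31.1 to 140.4 in deficient muscle. The skeletal muscle identity genes Ckm and Acta1 were among the brightest on all arrays, whereas Myod1 of the same list read 93.6 to 193.6. Of the 9 tested, 0 passed limma's test and 3 had an unadjusted p under 0.05. Their differences were negative in 7 and positive in 2. The groups did not overlap in 5 of the 9, where all genes tested gave 24.7%. Hair follicle genes stood at a summed signal of 2313 and 922.3 in wild type replicates 1 and 2, against 76.1 in wild type replicate 3 and 28.9 to 44.3 in deficient muscle. Of the 7 tested, 1 was called lower by limma's test and 7 had an unadjusted p under 0.05, where all genes tested gave 18.9%. Replicate 3 of both groups lacked Y-linked Eif2s3y (10.7 and 9.1), which read 414.6 to 573.7 in the other 4 mice, and had the highest Xist signals, 1163.1 and 1839.1. Deficient replicate 1 held both, with Xist at 396.3, and whether it was pooled or mixed cannot be told from the labels. The actin control's ratio of 5 prime to 3 prime signal was 1.04 to 1.15 in wild type and 0.51 to 0.819 in deficient arrays, while that of Gapdh overlapped between the groups.

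Mylk4 was lower in deficient muscle. Its 1 probe set, 1441111_at, read 1391.3, 950.1 and 2477.9 in wild type replicates 1, 2 and 3, and 268.5, 217.1 and 615.2 in the deficient replicates. The lowest wild type mouse stood 1.54-fold above the highest deficient mouse, so the groups did not overlap, and replicate 3 was the highest of its group in both. Means were 1606 ± 786 and 366.9 ± 217 signal units (SD, n = 3 each), a 4.38-fold difference and a log2 difference of -2.11 (SE 0.59). In the whole table, 28 tested genes had a more negative difference, so that Mylk4 ranked 29 from the lowest of 13104.

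**Figure D1:**
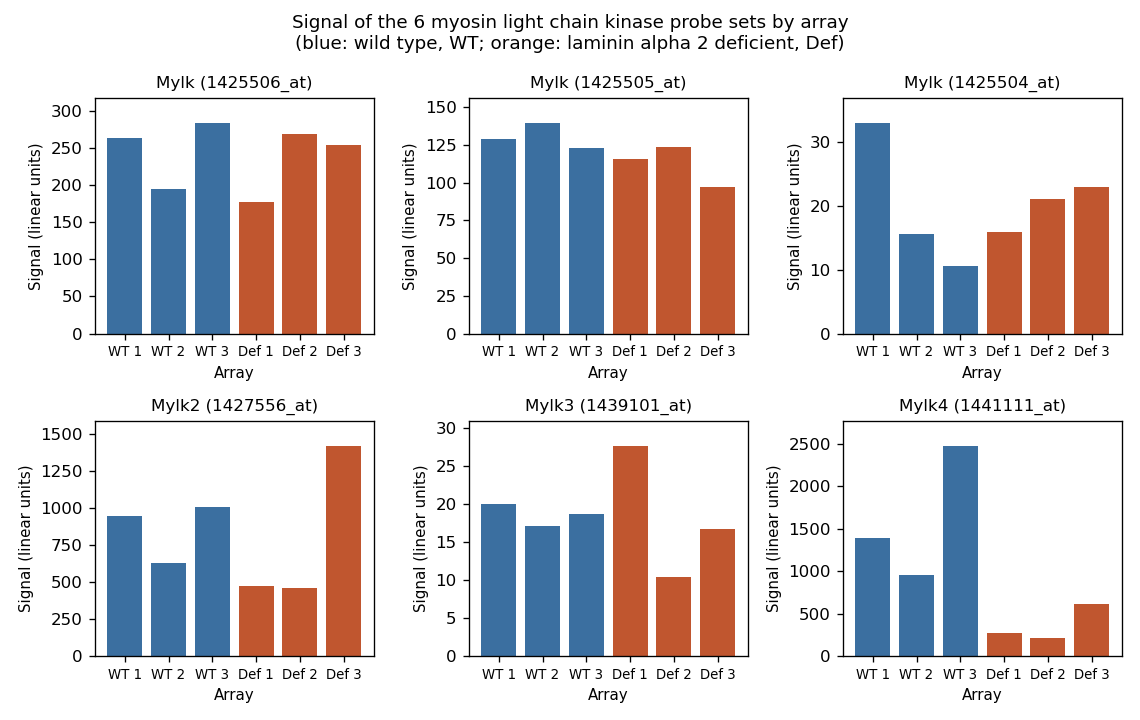
Linear signal (y axis, from 0) of each of the 6 kinase probe sets on the 3 wild type (WT, blue) and 3 laminin alpha 2 deficient (Def, orange) arrays. Every Mylk4 bar of deficient muscle, 217.1 to 615.2, is below every wild type bar, 950.1 to 2477.9, while the groups of the other 5 probe sets overlap.

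Of the 6 probe sets all passed the filter on low signal, and Mylk4 was the 1 whose groups did not overlap. Among all 45037 probe sets other than controls, filtered or not, the groups did not overlap in 17%. Among all genes tested, each by its brightest probe set, they did not overlap in 24.7%, and in 12.4% with the deficient group lower. By limma's test over all genes, 1 of the 4 family genes, Mylk4, was called lower, against 1.44% of all genes called lower and 2.69% in either direction. Since the family was chosen on this contrast, nothing is read from these counts.

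Mylk4 was also read by Y-linked transcripts, which reuses the values on which the family was chosen, and the part of sex was not tested. Among the 4 mice with Y-linked transcripts, the means were 1171 in wild type and 242.8 in deficient muscle (2 mice each), a 4.82-fold difference. Deficient replicate 1, placed among these 4, also had Xist signal. In the 2 mice without Y-linked transcripts, 1 per group, the signals were 2477.9 and 615.2, a 4.03-fold difference. With each library left out in turn the log2 difference ran from -2.54 without deficient replicate 3 to -1.75 without wild type replicate 3. Against wild type replicate 3 alone it was -2.84, a comparison added after the data were seen. That mouse had the fewest hair follicle transcripts of the wild type group, but also the highest Mylk4 signal, and it lacked Y-linked transcripts. The larger difference follows from that high signal, and the part of hair follicle carry-over was not tested. Within each group Mylk4 was also variable. Its SD on the log2 scale was 0.69 in wild type and 0.76 in deficient muscle, larger than in 98% and 95.8% of the 500 genes nearest to it in mean signal.

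Mylk2, the skeletal muscle kinase, did not separate the groups. Its probe set 1427556_at read 942.5, 627.7 and 1003.5 in wild type muscle and 469.9, 459.2 and 1417.3 in deficient muscle. Deficient replicates 1 and 2 lay below all wild type mice, whereas deficient replicate 3 lay above them all, at 3.02 times the next deficient mouse. Means were 857.9 ± 202 and 782.1 ± 550 (SD, n = 3 each), with a log2 difference of -0.31 (SE 0.57). Without deficient replicate 3 the difference was -0.83. In the mice with Y-linked transcripts it was -0.71 (2 mice each), and in the 2 mice without them it had the opposite sign, 0.49. The log2 SD of Mylk2 in deficient muscle, 0.91, was larger than in 98.2% of the 500 genes nearest to it in mean signal. Whether deficient replicate 3 stood apart through sex or through another property of that mouse cannot be told apart, since 1 deficient mouse lacked Y-linked transcripts.

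Mylk2 and Mylk4 ranked the mice alike inside each group. In wild type and in deficient muscle, replicate 2 was lowest, replicate 1 intermediate and replicate 3 highest for both genes. The same order in both groups was found in 444 of the 13104 genes tested (3.39%), and deficient replicate 3 was the highest deficient array for 35% of them.

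**Figure D2:**
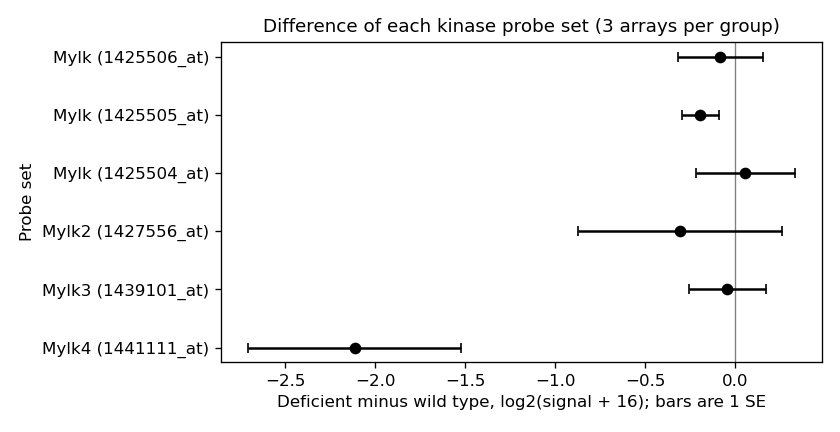
Difference between the group means of each kinase probe set on the log2(signal + 16) scale (x axis), with bars of 1 SE from 3 arrays per group. Mylk4 lies at -2.11, and the other 5 probe sets lie between -0.31 and 0.05.

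The ratio of Mylk4 to Mylk2 within an array had a log2 SD of 0.21 in deficient mice, where the genes had 0.76 and 0.91, and of 0.42 in wild type, where they had 0.69 and 0.36. Over the 6 arrays the profiles of both genes were far apart by root mean square distance, since 91.4% of the genes tested lay nearer to Mylk2 than Mylk4 did. Probe sets differ in brightness, so each log2 ratio was set relative to the wild type mean, a measure chosen after the values were seen. It was -0.26, -0.22 and 0.48 in wild type replicates 1, 2 and 3. In the deficient replicates it was -1.58, -1.84 and -1.99. The groups did not overlap, and the deficient mean was -1.80 ± 0.21 (SD, n = 3), a ratio 3.49-fold lower, with deficient replicate 3 the lowest of all. This ratio reuses the Mylk4 values on which the family was chosen, and its low value in deficient replicate 3 follows in part from the high Mylk2 signal there. Relative to Mylk, the ratio of Mylk4 was 4.08-fold lower, with deficient values of -1.97, -2.82 and -1.30.

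**Figure D3:**
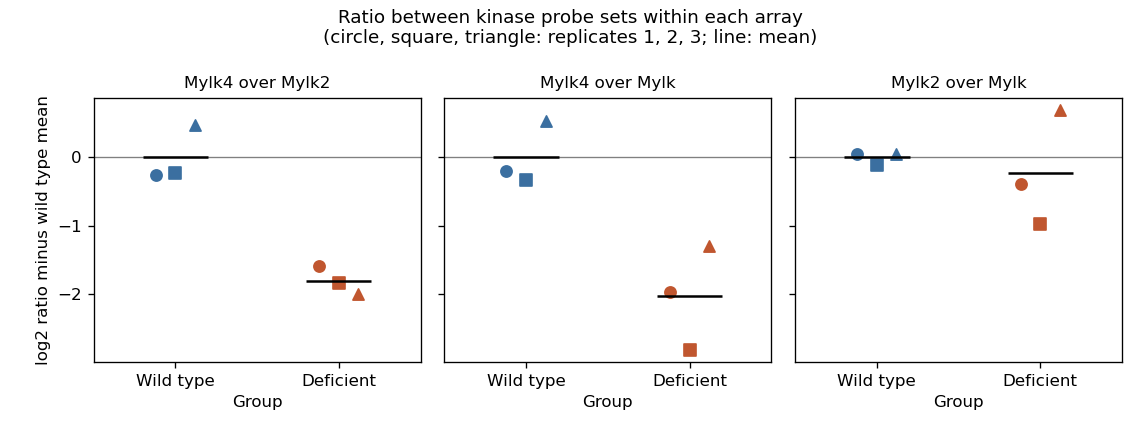
Log2 ratio of 2 kinase probe sets within each array, minus the wild type mean (y axis), for wild type and deficient mice; symbols mark replicates 1, 2 and 3 and lines the group means. Mylk4 over Mylk2 is at -1.58 to -1.99 in deficient mice, while Mylk2 over Mylk spreads from -0.98 to 0.69 and overlaps wild type.

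Mylk, the kinase of smooth muscle and non-muscle cells, had 3 probe sets, and the groups overlapped in each. The brightest, 1425506_at, read 263.9, 194.4 and 283.3 in wild type and 177, 268.8 and 253.5 in deficient muscle. Its means were 247.2 ± 46.7 and 233.1 ± 49.2, with a log2 difference of -0.08 (SE 0.23). The sign of that difference turned when wild type replicate 3 (0.02) or deficient replicate 1 (0.09) was left out. The second, 1425505_at, read 128.8, 139.3 and 122.7 against 115.6, 123.6 and 96.9. It overlapped through a single pair of mice and had the tightest wild type values of the 3, with a log2 difference of -0.20 (SE 0.10). The third, 1425504_at, lay between 10.6 and 32.9 on all arrays, close to the array medians, and its difference was 0.05 (SE 0.28). The transcripts of Mylk that each probe set reads were not given in the sources used here.

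Smooth muscle marker genes were measured beside Mylk. Of 10 listed, 8 were tested, and 0 rose, 0 fell and 8 did not pass limma's test, with 1 at an unadjusted p under 0.05. Over all genes tested, 2.69% were called and 18.9% had an unadjusted p under 0.05. Smtn, which encodes the smooth muscle protein smoothelin, read 485.1 ± 77.9 against 276.2 ± 85.6 in deficient mice (adjusted p = 0.11). Myocd, a coactivator of smooth muscle genes, was near the bottom of the scale, at 3.1 to 10.8 against 15.9 to 34.2 in deficient mice (adjusted p = 0.271). The summed signal of the list ran from 4942 to 6408 in wild type and from 4978 to 5960 in deficient arrays. In bulk muscle, fewer cells of a type and less RNA per cell cannot be told apart.

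Mylk3, the cardiac kinase, was dim in skeletal muscle. Its probe set 1439101_at read 20.1, 17.2 and 18.7 in wild type and 27.7, 10.4 and 16.8 in deficient muscle, below the array median on 5 of the 6 arrays. The wild type values fell inside the range of the deficient ones. The log2 difference was -0.05 (SE 0.21), and its sign turned without deficient replicate 2 (0.13). Cardiac genes Myh6, Tnni3 and Mybpc3 were dim as well, none of them above 59.5 on any array. The test was run on 5 of 9 listed cardiac genes: 1 rose, 1 fell and 3 missed the threshold, beside 2.69% called among all genes. By limma's test 3 of the 5 had an unadjusted p under 0.05, where all genes tested gave 18.9%. Tnnt2, the cardiac troponin T gene, which developing skeletal muscle also uses, rose from 85.4 ± 40.3 to 775.8 ± 296 (adjusted p = 0.00443). Actc1, cardiac actin, which is likewise a gene of developing muscle, read 11107.8, 11322.3 and 5641.9 in wild type and 3460.3, 3774.2 and 3720.2 in deficient muscle, and fell (adjusted p = 0.0279). The Actc1 call was lost without wild type replicate 1 or 2 or deficient replicate 1 or 2, at an adjusted p of 0.128, 0.114, 0.0762 and 0.0996. Its alternatives spanned 0.00146 to 0.128.

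The genes listed around light chain phosphorylation gave a single call, too few to compare with genes in general. Over 6 lists of substrates, phosphatase subunits, other light chain kinases, calmodulin, calmodulin-dependent kinases and giant kinases, 45 of 54 genes were tested. By limma's test 0 rose, 1 fell and 44 missed the threshold, beside the 2.69% called among all genes. At an unadjusted p under 0.05 there were 14 of the 45, a larger share than the 18.9% of all genes tested. Of these 14, 7 were calmodulin-dependent kinases, a list apart from the light chain kinases. The median difference of all 45 genes was 0.09, against 0.02 over all genes tested.

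The substrates, the regulatory light chains, had 0 of 6 tested genes past limma's threshold, beside 2.69% of all genes. At an unadjusted p under 0.05 there were 2 of the 6, where all genes tested gave 18.9%. Mylpf, the light chain of fast skeletal fibres and the main substrate in this tissue, was named for that role after its values were seen. It read 14937, 14270.7 and 14271.8 against 10640, 14537.7 and 12724.2 in deficient mice (adjusted p = 0.414). The groups overlapped, and deficient replicate 1 was the lowest mouse. Myl9, the light chain of smooth muscle, stood at 1197 ± 576 and 609.4 ± 211 (adjusted p = 0.23). Myl10 stood at 48.2 ± 21.9 and 96.1 ± 3.82 (adjusted p = 0.13).

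Among the light chain phosphatase genes 0 of 11 passed by limma, beside 2.69% of all genes. At an unadjusted p under 0.05 there were 3 of these 11 phosphatase genes, where all genes tested gave 18.9%. Ppp1r14c, an inhibitor of the catalytic subunit, came closest. Its signals were 862.2, 1009.9 and 967.5 in wild type against 531.1, 567 and 613.2 in deficient muscle, with no overlap, a log2 difference of -0.71 (SE 0.16) and an adjusted p of 0.0524. Ppp1r12a, the targeting subunit, stood at 270 ± 19.3 and 445.3 ± 132 (adjusted p = 0.157). Of the other kinases that can phosphorylate light chains 0 of 11 passed by limma, with 2 at an unadjusted p under 0.05. Dapk1, the death-associated protein kinase, which calmodulin also regulates, stood at 131.8 ± 23 and 272.2 ± 61.4 (adjusted p = 0.0543).

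The 13 calmodulin-dependent kinases tested held 1 that fell, 0 that rose and 12 that missed the threshold, beside 2.69% called among all genes. By limma's test 7 of the 13 had an unadjusted p under 0.05, where all genes tested gave 18.9%. The one that fell was Phkg1, the catalytic subunit of muscle phosphorylase kinase, an enzyme that carries calmodulin as a subunit and activates glycogen breakdown. Its signals were 1446.2, 1630.8 and 1363 in wild type and 409.3, 612.3 and 670.7 in deficient muscle, a log2 difference of -1.39 (SE 0.21, adjusted p = 0.0122). Its call was lost without wild type replicate 1 (adjusted p = 0.0673), wild type replicate 2 (0.0673) or deficient replicate 2 (0.0507). Its alternatives spanned 0.00308 to 0.0673. The giant sarcomeric and Trio family kinases, whose kinase domains are related to those of this family, had 0 of 4 tested genes past limma's threshold and 0 at an unadjusted p under 0.05. Ttn, the gene of the giant sarcomere protein titin, stood at 5943 ± 248 and 7632 ± 1830 (adjusted p = 0.322) and Trio at 165.1 ± 51 and 227.6 ± 72.4 (adjusted p = 0.441). None of the 3 calmodulin genes had a probe set with a single symbol, so they were not analysed here.

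**Figure D4:**
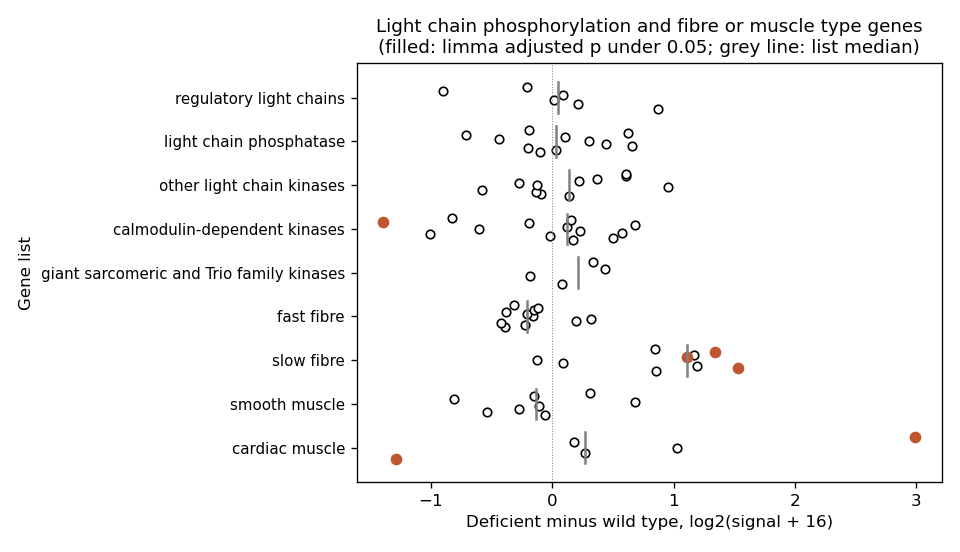
Log2 difference between deficient and wild type muscle (x axis) for the tested genes of each list (y axis); filled points passed limma's test at an adjusted p under 0.05 and grey lines are list medians. Outside the fibre and muscle type lists a single point is filled, Phkg1 of the calmodulin-dependent kinases at -1.39, while the slow fibre list has its median at 1.11.

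Fibre type genes were read beside the kinases, because skeletal kinase activity is known to be highest in fast fibres. Of 11 fast fibre genes, 0 passed, with 4 at an unadjusted p under 0.05 and a median difference of -0.21. Mybpc2, fast myosin-binding protein C, stood at 8660 ± 161 and 6503 ± 1030 (adjusted p = 0.14), and Actn3, the fast fibre actinin, at 12410 ± 510 and 9529 ± 1390 (adjusted p = 0.148). The slow fibre list, with a median of 1.11, held 3 genes that rose, 0 that fell and 6 others. Of its 9 genes, 7 had an unadjusted p under 0.05 by limma's test, where all genes tested gave 18.9%. The genes that rose were Myoz2 (log2 difference 1.11), Tnni1 (1.34) and Casq2 (1.53), with adjusted p = 0.0148, 0.0197 and 0.0197. All 3 calls were lost when wild type replicate 1 was left out (adjusted p = 0.0611, 0.0999 and 0.0649), and likewise for wild type replicate 2 (0.0629, 0.0909 and 0.0889) and deficient replicate 2 (0.0521, 0.0744 and 0.0894). Over the alternatives their adjusted p ran from 0.00297 to 0.0629, 0.00624 to 0.0999 and 0.00835 to 0.0894. The summed signal of the fast list was 122700 to 127700 in wild type and 90760, 122600 and 120200 in deficient replicates 1, 2 and 3. That of the slow list was 9825 to 13770 and 14600 to 24090.

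Markers of other cells were read in the same arrays. Among 10 macrophage genes 1 rose and 9 missed the threshold. All 10 had a positive difference, with a median of 1.24. At an unadjusted p under 0.05 by limma's test there were 9 of the 10, where all genes tested gave 18.9%. Their summed signal was 2792 to 4200 in wild type against 12770, 9480 and 4394 in deficient replicates 1, 2 and 3. The deficient mouse with the lowest macrophage sum, replicate 3, had the highest Mylk4 and Mylk2 of its group. The other deficient mice went the other way. Replicate 1, with the highest sum, had higher Mylk4 and Mylk2 (268.5 and 469.9) than replicate 2 (217.1 and 459.2). Summed brown adipocyte signal was 7982 to 9869 in wild type and 5382 to 6705 in deficient muscle, with 1 gene higher, 2 lower and 2 not past the test. Of these 5 genes, 4 had an unadjusted p under 0.05 by limma's test. Most of that sum was Cox8b, at 7333 ± 403 and 5424 ± 659 (adjusted p = 0.108), so the sum is not read as an amount of brown adipocytes. Ucp1, the uncoupling protein gene that marks brown adipocytes, read 1033.4, 356.7 and 1481.2 in wild type against 43.8, 12.7 and 43.7 in deficient mice, a log2 difference of -4.16 (adjusted p = 0.00443). Cidea, a lipid droplet gene of these cells, differed by -1.34 (adjusted p = 0.0211), and both fell. The Cidea call was lost when wild type replicate 1 (0.106) or 3 (0.0534) or deficient replicate 1 (0.0643) or 2 (0.0744) was left out, and its adjusted p spanned 0.00715 to 0.106. The third called gene, the deiodinase gene Dio2, rose by 1.48 (adjusted p = 0.0453), a call lost under 10 of 15 alternatives (0.006 to 0.248), among them each library left out except deficient replicate 3. These 3 genes were named after their values were seen. The fibroblast list, at 17600 to 31000 and 24200 to 31530, and the endothelial list, at 864.5 to 1454 and 767 to 1158, overlapped between the groups, and 0 of 6 and 0 of 5 genes passed, with 2 and 0 at an unadjusted p under 0.05. The part of fibre type, of these cells, of hair follicle carry-over and of the actin ratio in the Mylk4 difference was not tested.

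The genes whose profiles over the 6 arrays lay nearest to Mylk4 were Gpt2, Otop1, Ddo, Gpd2 and BC048679. Nearness was the root mean square distance between log2 values after each gene's own mean was removed, 0.41, 0.46, 0.47, 0.50 and 0.50 for these genes against a median of 1.25 over all genes tested. They were picked for likeness to Mylk4, so their group differences follow from that choice and carry no test here. Gpt2, a mitochondrial alanine aminotransferase, read 1057.8, 1014.9 and 1444.4 in wild type and 313.2, 284.4 and 746.9 in deficient muscle. Among the 5 genes, Gpt2 and Otop1 kept the order of Mylk4 within both groups. Gpd2, the mitochondrial glycerol-3-phosphate dehydrogenase, read 1218.7, 1324.5 and 2042.8 against 555.4, 405.4 and 626.6. Ddo, D-aspartate oxidase, read 258.9, 221.9 and 358.3 against 26.4, 37.9 and 43.5. The proton channel gene Otop1 read 31.6 to 112.7 against 10.8 to 22.8, and BC048679 77.4 to 144.4 against 15.5 to 48.6. In all 5 genes, replicate 3 was the highest mouse of both groups, as for Mylk4, which also follows from their choice by likeness.

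**Figure D5:**
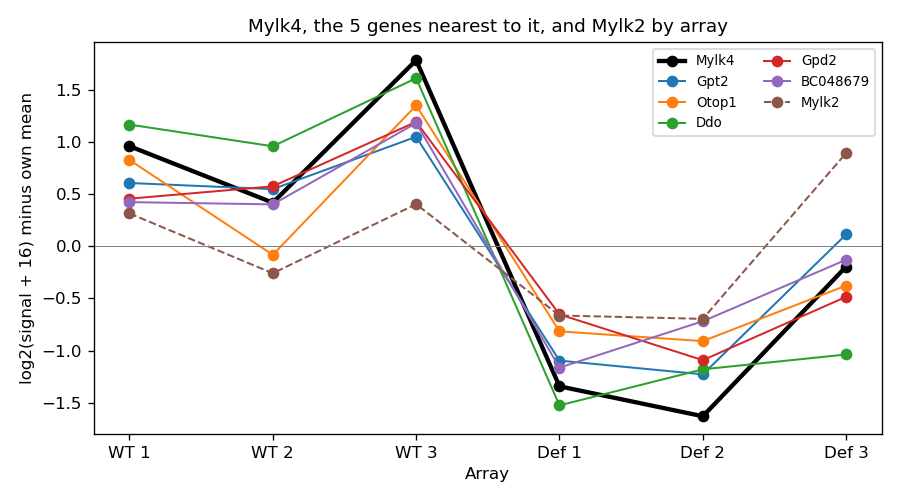
Log2(signal + 16) of Mylk4 (thick black), the 5 genes nearest to it and Mylk2 (dashed) on each array, minus each gene's own mean over the 6 arrays (y axis). The 5 genes lie at distances of 0.41 to 0.50 from Mylk4, while Mylk2 is high in deficient replicate 3, at a signal of 1417.3.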

How the data were processed

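RNA of 6 mouse hind limb muscles was hybridised to Affymetrix arrays after TRIzol extraction, RNeasy purification and biotin labelling from 1 ug, per the labels. The authors deposited linear signal intensity per probe set. The algorithm was not given in the sources used here, but the mean of each array without its lowest and highest 2% was 99.46 to 99.95, so arrays had been scaled alike. Groups and replicates came from the sample titles, which call the muscle samples biological replicates.

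The scale was log2(signal + 16). Array medians differed by 0.226 at most, so no further normalization was applied. Symbols came from GEO's platform annotation, updated through Entrez identifiers to RefSeq for 34741 probe sets: 34945 probe sets had 1 symbol, 932 several, 9160 none, and 64 were controls. Probe sets below the 40th percentile of mean signal (15) were dropped, and the brightest remaining probe set stood for its gene. The two-sided test was that of limma 3.58.1 (lmFit and eBayes, intensity trend, no block), run in R 4.3.3 with the data.table package, version 1.17.8. Adjusted p-values are limma's, by the Benjamini-Hochberg method over 13104 genes, called under 0.05. Steps were tested on simulated data. SEs of family probe sets came from the pooled spread of both groups.

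The family and the lists were chosen with earlier results of these data known. Named genes were the called genes of a list, at most 4, or else the 2 with the smallest p, and the 5 genes nearest to a family member whose groups did not overlap. The values of 1 gene that this rule names are not reported here. The alternatives were array scaling, pseudocount, filter, use of probe sets, trend, replicate block and each library left out. A block for Y-linked transcripts (Eif2s3y above 100) and a comparison without wild type replicates 1 and 2 were added after seeing the data.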

Additional observations from a re-analysis of the deposited data

How the results depend on the processing

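The log2 differences of the 4 kinase genes moved by less than 1 SD of the replicates under every alternative run for them, except Mylk4 without wild type replicates 1 and 2 (-2.84). That SD is a wide yardstick for Mylk2 and Mylk4, which varied much within groups. Both blocks were balanced and could not move these differences, and the use of probe sets could move only that of Mylk. The filter and trend alternatives were not run for these 4 genes. With each library left out, Mylk4 ran from -2.54 to -1.75, Mylk2 from -0.83 to -0.04, Mylk from -0.24 to 0.09 and Mylk3 from -0.24 to 0.13. The count of genes changed, 353 as reported, was 216 without the filter, 159 without the intensity trend, 855 with the replicate block, 1144 with a block for Y-linked transcripts and 64 to 665 with 1 library left out. Same-numbered mice correlated in their deviations at 0.15, 0.07 and 0.30, so the numbers were not taken to pair them. The replicate block called 1 regulatory light chain gene, 1 phosphatase gene, 1 other light chain kinase gene, 2 calmodulin-dependent kinase genes and 7 slow fibre genes. With the filter at the 60th percentile 1 phosphatase gene and 1 other light chain kinase gene were called. Of the 2 cardiac genes called, 1 was called without the filter and without the trend. With 1 library left out, calls ran from 0 to 2 for calmodulin-dependent kinases, 0 to 5 for slow fibre, 1 to 2 for cardiac, and 0 to 1 for phosphatase and other light chain kinase genes, and stayed at 0 for regulatory light chains. The causes were not tested. No call was made in the fast fibre, smooth muscle and giant kinase lists under any alternative run for them. The block for Y-linked transcripts was read for neither the lists nor the named genes. The same holds for the comparison without wild type replicates 1 and 2. Of 402 values of 27 named genes under the alternatives, 0 reversed, 38 lost a call and 16 gained one. Signals near the array medians, as for Mylk3, limit what can be seen of dim genes.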
